A study of Mus musculus with 5 samples.

Results

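Nos2, Irg1, Hif1a, Arg1, Ptgs2, Hmox1, Adora2a and Tgm2 are 8 genes of macrophage effector metabolism and signalling, and they are described here through the Runx3 binding sites around them in a mouse dendritic cell line. They are 8 of the 22225 protein-coding genes of the mm9 annotation. A peak was assigned to a gene when its summit, the base of highest coverage, lay in the regulatory domain of that gene. The domain spans 5 kb upstream to 1 kb downstream of the start site and is extended on each side by up to 1 Mb or to the corresponding stretch of the next gene. By this rule 34 of the 13014 Runx3 peaks belonged to the 8 genes.

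The data came from chromatin immunoprecipitation with sequencing of D1 cells, a dendritic cell line of splenic origin. The Runx3 IP group, 3 libraries, was precipitated with polyclonal rabbit antibodies against mouse Runx3, and the NIS IP group, 2 libraries, with non-immune rabbit serum. All 5 libraries came from the same cultured line, with no genetic change or treatment named in the labels. The protocol text in the labels speaks of 2 replicate experiments, and how the 5 libraries relate to these is not given in the sources used here. The peaks were called from 1 Runx3 and 1 NIS alignment whose libraries are not named, so there is no value per library, no replicate error, and no test between conditions. D1 is a dendritic cell line and not a macrophage, the RNA of these genes was not measured in this assay, and the identity of the line could not be checked against marker genes from a list of binding sites.

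Runx3 belongs to the RUNX family of transcription factors, which bind a short core in DNA through the Runt domain and act in mononuclear phagocytes, T cells and NK cells. The 8 genes cover the opposing uses of arginine, the mitochondrial and hypoxic arms of activated macrophages, prostaglandin synthesis, haem breakdown, adenosine sensing and protein cross-linking. Binding of a factor near a gene does not by itself show that it controls that gene.

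Runx3 occupied the surroundings of 7 of the 8 genes, and of 43.1% of all genes (9573 of 22225). Hmox1 had no peak. A peak of at least 10-fold was present at 6 of the 8 genes and at 19.7% of all genes. At least 5 peaks were present at 4 of the 8 genes (Irg1, Tgm2, Hif1a and Adora2a) and at 4.99% of all genes. These counts have to be read with the size of the domains, whose median was 268 kb for the 8 genes and 90 kb for all genes. Among genes with domains of 150 kb or more, 7 of 7 effector genes and 55.5% of 7581 genes had a peak. A peak of at least 10-fold was present at 6 of 7 and 30.2%, and at least 5 peaks at 4 of 7 and 11.6%. This cut is not among the alternatives listed below, and it leaves out only Hmox1 (69.8 kb), the gene without a peak. The smallest domains it kept were those of Tgm2 (154 kb) and Nos2 (156 kb), so 7 of 7 and 7 of 8 count the same genes. The 2.73 Mb covered by the domains of the 8 genes held 12.4 peaks per Mb, against 5.22 per Mb over the autosomes. The 8 genes were chosen with earlier results of these data known. These counts are therefore a description and not a measure of enrichment.

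None of the 8 genes had a summit in its basal domain, 5 kb upstream to 1 kb downstream of its start site, whereas 17.4% of all genes did. For 7 of the 8 genes no summit lay within 5 kb of the start site on either side, Irg1 being the exception. None of the 34 summits lay in a promoter, taken as 1 kb upstream to 100 bp downstream of the start of a protein-coding transcript, or in an exon. This count depends on Kctd12, a gene near Irg1 that the annotation used here lists as a pseudogene and RefSeq as protein-coding. The summit 63.9 kb upstream of Irg1 lay 514 bp upstream of the annotated 5′ end of Kctd12. It would count as a promoter summit if Kctd12 were taken as protein-coding. The domains end before the basal domains of the neighbouring genes, so most promoters of other genes could not be counted here, and these shares are not set against those of all peaks. Introns held 15 of the 34 summits and 19 were intergenic. The nearest start site of a protein-coding transcript was that of the assigned gene for 25 of the 34 peaks, and 23 of the 34 also lay in the domain of another gene. Neither count is set against that of all peaks. The 25 include all 12 peaks of Irg1, since Kctd12 was not counted. The Irg1 peaks on the far side of Kctd12, the strongest among them, lie closer to its 5′ end than to Irg1. So do the peaks 63.9 and 39.1 kb upstream of Irg1, which lie between Kctd12 and Irg1.

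**Figure D1:**
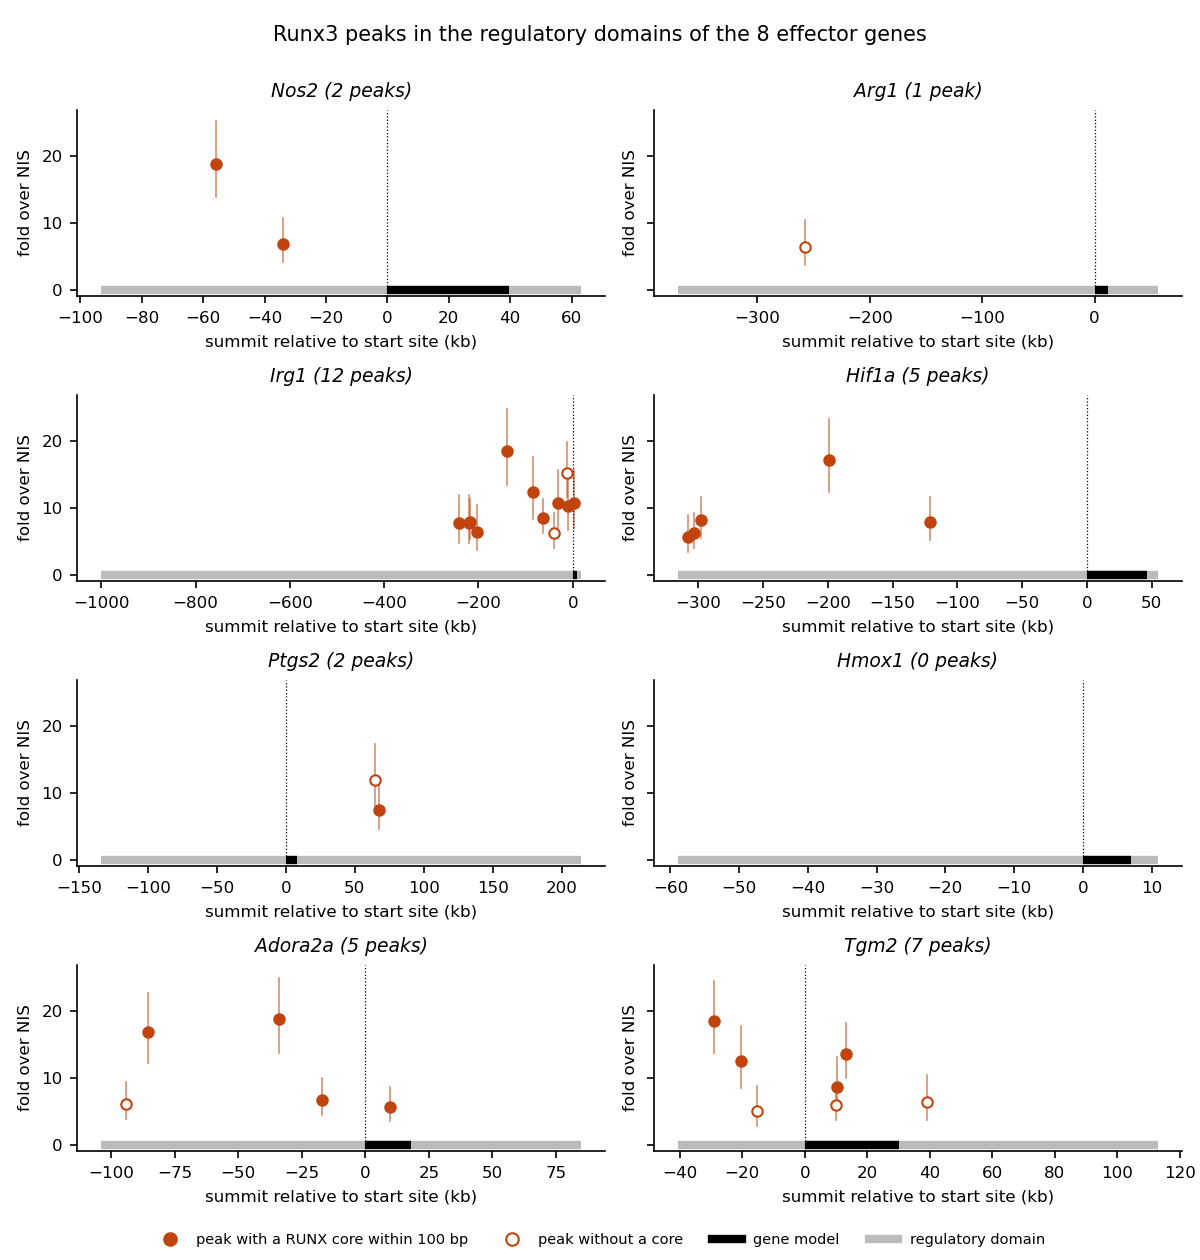
Each panel plots the Runx3 peaks of 1 gene by the distance of the summit from the start site (kb, negative upstream in the direction of transcription) and by the fold over NIS (points, with 95% Poisson intervals of the Runx3 fragments as lines). Grey bars are the domains, black bars the gene models, and filled points hold a RUNX core. The strongest peaks of Nos2, Irg1, Hif1a, Adora2a and Tgm2 stand between 17.2 and 18.9-fold, those of Ptgs2 and Arg1 at 12 and 6.39-fold, and the Hmox1 panel is empty.

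Nos2 encodes the inducible nitric oxide synthase, which turns arginine into nitric oxide and citrulline in activated macrophages. The gene lies on chromosome 11, on the plus strand (chr11:78734289-78773756), and its 156 kb domain held 2 peaks, both intergenic and upstream, at 55.7 and 33.9 kb from the start site. The farther peak carried 42 Runx3 fragments over a NIS background of 0.315, the genome-wide average, and reached 18.9-fold (95% interval 13.9 to 25.3), at or above 97.4% of all peaks. This background is at the floor of the list, where the lowest value was 0.314. A background under 0.32 was held by 14 of the 34 peaks (41.2%, 26.4 to 57.8) and by 44.8% of all peaks. The fold is the scaled Runx3 coverage at the summit over the NIS background, each plus 1, and its interval covers the counting error of the Runx3 fragments only. At 521 bp the farther peak was among the wider peaks, the median width being 172 bp both for the peaks of the 8 genes and for all peaks. Its nearest start site, at 38.5 kb, was that of 1810012P15Rik, whose domain also held both peaks. The nearer peak had 16 fragments over a background of 0.476 and was 6.85-fold (4.20 to 10.7), so that the intervals of the 2 peaks did not overlap.

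The mm9 plus-strand sequences of both Nos2 summits, chr11:78678521-78678621 and chr11:78700354-78700454, are shown because each holds a RUNX core, TGTGGT or TGCGGT on either strand (ACCACA or ACCGCA when read from the other strand). The core is in capitals, in this and all other sequences shown, and each sequence runs 5′ to 3′ over 101 bases centred on the summit.
Nos2 55.7 kb upstream: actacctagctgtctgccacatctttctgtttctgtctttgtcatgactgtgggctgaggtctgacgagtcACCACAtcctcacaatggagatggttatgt
Nos2 33.9 kb upstream: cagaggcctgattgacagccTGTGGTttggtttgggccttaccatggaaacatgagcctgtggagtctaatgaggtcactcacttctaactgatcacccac
The centre of the core lay 23.5 bp from the summit of the stronger peak and 27.5 bp from that of the weaker. Just outside the domain, 0.966 kb past its end and 64.1 kb downstream of the Nos2 start, a 7.41-fold peak sat at the start site of Lgals9, which encodes a galectin.

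Arg1 encodes arginase 1, which hydrolyses arginine to ornithine and urea and so draws on the same substrate as Nos2. It had the weakest binding of the 7 genes with a peak. The gene is on the minus strand of chromosome 10 (chr10:24635014-24647276), and the 427 kb domain held 1 peak, 258 kb upstream, where the autosomal density gives 2.23 peaks for a domain of that length. The peak had 13 fragments and was 6.39-fold (3.76 to 10.4), at or above 23.5% of all peaks. It lay in an intron of Akap7, which encodes an A-kinase anchoring protein, 14.8 kb from a start site of that gene and also in its domain. Arg1 had 0 peaks with extensions of at most 100 kb, with the nearest gene alone, with domains bounded by every biotype, and with a fold of at least 10.

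The sequence of the Arg1 summit (chr10:24905141-24905241, plus strand) is shown because it holds no RUNX core but a tandem repeat.
Arg1 258 kb upstream: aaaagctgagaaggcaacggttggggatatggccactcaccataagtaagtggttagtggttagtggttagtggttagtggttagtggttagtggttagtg
Within 100 bp of the summit, the longest stretch that repeated exactly with a fixed period ran over 55 bases with a period of 7 bases. A repeated stretch of this length or longer was present in 0.131% of all peaks. The alignment behind the peak list kept uniquely placed reads, and whether the repeat bears on this peak was not tested.

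Irg1, also named Acod1, encodes the mitochondrial enzyme that makes itaconate from cis-aconitate in activated macrophages. Its domain held 12 peaks, a number reached by 0.256% of all genes (57 of 22225), and 10 of the 12 held a core. The gene is on the plus strand of chromosome 14 (chr14:103446194-103455790). The domain, extended by the full 1 Mb upstream, was 1018 kb long, and at the autosomal density a domain of that length gives 5.31 peaks. The share of genes with 12 peaks was not taken among genes with long domains. All 12 peaks lay within 241 kb upstream to 1.78 kb downstream of the start site, 11 of them intergenic and upstream.

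The annotation affects this count. Between Irg1 and the outer peaks lies Kctd12, an auxiliary subunit gene of GABA-B receptors, which the mm9 annotation used here lists as a pseudogene and RefSeq lists as protein-coding. With such models also allowed to bound domains, an alternative added after the data were seen, Irg1 kept 5 peaks, from 39.1 kb upstream to the intron, and its highest fold was 15.3. Under the main rule at least 5 peaks were present at 4.99% of all genes.

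The strongest of the 12, 140 kb upstream, had 41 fragments over the average NIS background and was 18.5-fold (13.5 to 24.8). The peak at 84.9 kb upstream had 27 fragments and was 12.4-fold (8.42 to 17.7). These summits each held 2 cores, as did those at 203 and 218 kb upstream, which were 6.39 and 7.90-fold. The peak 12.7 kb upstream had the most fragments of all 34, 52, and since its NIS background was 1.00 its fold was 15.3 (11.6 to 19.9).

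Near the gene, the peak 9.77 kb upstream had 22 fragments and was 10.3-fold (6.73 to 15.2). The peak in an intron of the gene, 1.78 kb past the start site, had 23 fragments and was 10.7-fold (7.07 to 15.7), and it was the summit closest to any of the 8 start sites. The peak at 30.8 kb upstream also had 23 fragments and was 10.7-fold. The remaining 5 peaks, at 241, 220, 218, 203 and 39.1 kb upstream, were between 6.19 and 7.90-fold.

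The peak 63.9 kb upstream differed in kind from the others. Its summit lay 514 bp upstream of the annotated 5′ end of Kctd12 (chr14:103377437-103381745, minus strand), it was 524 bp wide, and it held 11 CpG dinucleotides within 100 bp of the summit, against a median of 2.5 for the peaks of the 8 genes and 3 for all peaks. It had 43 fragments, but the NIS background there was 2.00, the highest of the 34, and the fold was 8.49 (6.24 to 11.3). The outermost peak, 241 kb upstream, lay 144 bp from an annotated 5S rRNA model. The part of NIS background and of repeated RNA genes in these peaks was not tested.

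The sequences of 5 Irg1 summits are shown, since they hold the paired cores (chr14:103306297-103306397 and chr14:103361288-103361388), the C-containing core beside Kctd12 (chr14:103382209-103382309), no core under the most fragments (chr14:103433489-103433589), and the core in the Irg1 intron (chr14:103447920-103448020), all on the plus strand of mm9.
Irg1 140 kb upstream: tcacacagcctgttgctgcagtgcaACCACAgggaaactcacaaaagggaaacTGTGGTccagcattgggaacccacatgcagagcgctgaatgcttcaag
Irg1 84.9 kb upstream: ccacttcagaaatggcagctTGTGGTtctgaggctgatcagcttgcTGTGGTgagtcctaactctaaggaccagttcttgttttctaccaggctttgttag
Irg1 63.9 kb upstream: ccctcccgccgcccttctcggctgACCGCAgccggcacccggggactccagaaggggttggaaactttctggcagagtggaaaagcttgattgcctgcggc
Irg1 12.7 kb upstream: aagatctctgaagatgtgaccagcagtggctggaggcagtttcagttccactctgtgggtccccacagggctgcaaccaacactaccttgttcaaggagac
Irg1 1.78 kb downstream: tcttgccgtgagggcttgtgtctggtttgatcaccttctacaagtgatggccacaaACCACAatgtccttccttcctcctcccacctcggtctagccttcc
In the intronic sequence the centre of the core lay 8.5 bp from the summit. The 12.7 kb sequence holds TGTGGG near its centre, which differs from the T form of the core in the last letter and was looked at only after this sequence had been seen. Within 100 bp of the summit, these letters stood in 4 of the 8 core-less peaks of the effector genes, the prompting peak among them, and in 31.0% of the 4665 core-less peaks in all. They stood in 9 of the 26 peaks with a core (34.6%) and in 23.7% of all peaks with a core.

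Hif1a encodes the oxygen-regulated subunit of hypoxia-inducible factor, which also drives glycolysis in activated macrophages. The gene is on the plus strand of chromosome 12 (chr12:75002362-75048517). Its 370 kb domain held 5 peaks, all upstream and all with a core, and the closest summit was 121 kb from the start site. Of the 5, 4 lay in introns of Prkch, the neighbouring gene for a protein kinase C, at 308, 303, 298 and 199 kb upstream of Hif1a.

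The intronic peak at 199 kb had 38 fragments over the average background and was 17.2-fold (12.4 to 23.3). The others were weaker, the 3 outer Prkch peaks standing at 5.62, 6.19 and 8.18-fold and the intergenic peak at 121 kb at 7.89-fold (5.16 to 11.6). Only the 121 kb peak had Hif1a as the nearest start site, and all 5 also lay in the domain of Prkch. A further peak of 8.99-fold lay 1.11 kb outside the domain, 0.108 kb upstream of a Prkch start site. With domains extended by at most 100 kb, Hif1a had 0 peaks.

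The strongest Hif1a summit (chr12:74803124-74803224, plus strand) is shown for its 2 cores in opposite orientation, the nearer of which was centred 1.5 bp from the summit.
Hif1a 199 kb upstream: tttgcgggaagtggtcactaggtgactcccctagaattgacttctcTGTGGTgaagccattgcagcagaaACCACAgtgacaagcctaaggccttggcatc

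Ptgs2 encodes cyclooxygenase-2, the inducible enzyme that commits arachidonic acid to prostaglandins. The gene is on the plus strand of chromosome 1 (chr1:151947254-151955140), and its 348 kb domain held 2 peaks, both downstream of the gene and 2.27 kb apart. The peak at 64.9 kb had 26 fragments and was 12-fold (8.11 to 17.3), and the peak at 67.2 kb had 16 fragments and was 7.45-fold (4.57 to 11.6). Both were intergenic, nearest to Ptgs2 among protein-coding genes, and also in the domain of Pdc, which encodes phosducin.

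The stronger summit lay 120 bp upstream of the annotated 5′ end of the lincRNA Gm17311 (chr1:152006173-152012078, minus strand), and it held 9 CpG dinucleotides within 100 bp. When genes of every biotype bounded the domains, Ptgs2 had 0 peaks. On the other side of Ptgs2, 25.8 kb outside its domain, a 9.85-fold peak with a core was nearest to Pla2g4a, which encodes the cytosolic phospholipase A2 that releases arachidonic acid.

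Both Ptgs2 sequences (chr1:152012148-152012248 and chr1:152014417-152014517, plus strand) are shown because the stronger summit holds no core and the weaker holds one, centred 4.5 bp from the summit.
Ptgs2 64.9 kb downstream: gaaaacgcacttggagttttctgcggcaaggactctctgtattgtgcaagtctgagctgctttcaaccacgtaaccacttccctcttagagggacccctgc
Ptgs2 67.2 kb downstream: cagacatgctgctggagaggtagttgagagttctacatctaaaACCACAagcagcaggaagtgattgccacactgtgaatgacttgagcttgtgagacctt

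Hmox1 encodes haem oxygenase 1, which breaks haem down to biliverdin, carbon monoxide and iron. It lies on the plus strand of chromosome 8 (chr8:77617490-77624495). No summit lay in its domain (chr8:77558586-77628426), which at 69.8 kb was the smallest of the 8, and where the autosomal density gives 0.365 peaks. The nearest summits on each side lay outside the domain. On the upstream side a peak of 11 fragments and 5.35-fold lay 0.584 kb outside the domain and 0.417 kb downstream of a start site of Tom1, an endosomal trafficking gene. On the downstream side a peak of 38 fragments and 15.3-fold lay 15.5 kb outside the domain, 26.4 kb from the Hmox1 start and 10.4 kb from that of Mcm5, a subunit gene of the replicative helicase. Both held a RUNX core. The absence of a peak says only that none was called inside the domain.

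Adora2a encodes an adenosine receptor that raises cyclic AMP and restrains inflammatory responses of myeloid and T cells. The gene is on the plus strand of chromosome 10 (chr10:74779688-74797533), and 4 of the 5 peaks in its 189 kb domain lay in introns of the upstream neighbour Specc1l, a gene of the cytoskeleton. The density was 26.5 peaks per Mb. The peak 34.1 kb upstream had 43 fragments and was 18.8-fold (13.8 to 25), and the peak 85.4 kb upstream had 40 fragments and was 16.9-fold (12.3 to 22.8).

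The other Specc1l peaks, 94.2 and 17.0 kb upstream, were 6.14 and 6.76-fold. The fifth peak lay in an intron of Adora2a itself, 9.69 kb downstream of the start site, with 18 fragments and 5.62-fold (3.54 to 8.59). The NIS background was 1.00 at both the 17.0 kb and the intronic peak. The nearest start site was that of Adora2a for 3 of the 5 peaks and that of a Specc1l transcript for the others, including the 85.4 kb peak, which lay 1.69 kb from it. An 18.1-fold peak nearest to Upb1, 113 kb downstream of the Adora2a start, lay 27.7 kb outside the domain.

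The strongest Adora2a summit (chr10:74745549-74745649) and the intronic one (chr10:74789330-74789430), both plus strand, are shown for a lone core and for 2 cores 10 bp apart in the same orientation.
Adora2a 34.1 kb upstream: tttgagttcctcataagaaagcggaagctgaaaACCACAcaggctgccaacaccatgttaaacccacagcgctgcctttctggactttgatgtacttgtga
Adora2a 9.69 kb downstream: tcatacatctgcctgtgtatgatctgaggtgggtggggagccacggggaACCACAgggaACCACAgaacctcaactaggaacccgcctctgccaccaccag

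Tgm2 encodes tissue transglutaminase, which cross-links proteins and is known for its part in the uptake of apoptotic cells by macrophages. It had the densest binding of the 8 genes, 7 peaks in 154 kb or 45.6 per Mb, where the autosomal density gives 0.802 peaks for that length. It is transcribed from the minus strand of chromosome 2 (chr2:157942138-157972172). In its own introns lay 3 summits, 3 were upstream and intergenic, and 1 lay in an intron of Rprd1b, a gene of RNA polymerase II regulation, 39.0 kb downstream of the start site.

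The peak 29.2 kb upstream had 44 fragments and was 18.5-fold (13.7 to 24.6). Its nearest start site, 16.4 kb away, was that of 1700060C20Rik, and for the other 6 peaks it was that of Tgm2. The intronic peak 13.2 kb downstream of the start had 42 fragments and was 13.6-fold (9.95 to 18.2), and the peak 20.3 kb upstream had 27 fragments and was 12.5-fold (8.46 to 17.8).

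The remaining 4 were weaker. The intronic summits at 10.4 and 9.95 kb, 443 bp apart, each had 19 fragments, and a higher background at the second put them at 8.71 and 5.91-fold. The Rprd1b peak was 6.39-fold with 13 fragments. The peak 15.4 kb upstream was the weakest of all 34, with 10 fragments and 5.09-fold (2.84 to 8.73). No core was present at the 9.95, 39.0 and 15.4 kb summits, while the 10.4 kb summit held 3, more than any other of the 34.

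The 3-core summit (chr2:157961726-157961826) and the strongest summit (chr2:158001284-158001384) of Tgm2 are shown on the mm9 plus strand.
Tgm2 10.4 kb downstream: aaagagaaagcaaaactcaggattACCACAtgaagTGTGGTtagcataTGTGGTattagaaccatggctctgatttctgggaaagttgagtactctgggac
Tgm2 29.2 kb upstream: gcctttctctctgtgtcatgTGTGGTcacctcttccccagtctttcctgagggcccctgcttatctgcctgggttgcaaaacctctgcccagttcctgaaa

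Ordered by their strongest peak, the genes were Nos2 (18.9-fold), Adora2a (18.8), Tgm2 (18.5), Irg1 (18.5), Hif1a (17.2), Ptgs2 (12) and Arg1 (6.39). The counting intervals of the first 5 overlapped one another, and that of Ptgs2 overlapped all 6 others, so neighbours in this order were not separated. The interval of Arg1 overlapped only that of Ptgs2. The order holds for the domain rule. With each peak given to its nearest gene alone, the strongest peak was 6.85-fold for Nos2, 7.89-fold for Hif1a and 13.6-fold for Tgm2. Arg1 had none, and Adora2a, Irg1 and Ptgs2 kept their values, that of Irg1 only because Kctd12 was not counted. The median of the strongest fold was 18.5 for the 7 genes with a peak and 9.55 for the 9573 genes with a peak, and the median number of peaks was 5 and 2. The part of the longer domains, and of the choice of the genes, in both differences was not tested.

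Taken peak by peak, the 34 were close to the whole list in strength. Their median fold was 8.04 (95% order-statistic interval 6.76 to 12), against 8.12 for all peaks, and the median number of Runx3 fragments was 22, against 19. A fold of at least 10 was reached by 14 of the 34 (41.2%, Wilson 95% interval 26.4 to 57.8) and by 28.7% of all peaks. The median NIS background was 0.357 and 0.345, and 9 of the 34 (26.5%, 14.6 to 43.1) stood on a background of 0.99 or more, against 17.1% of all peaks. Another summit within 10 kb was found for 19 of the 34 (55.9%, 39.5 to 71.1) and for 43.7% of all peaks. The intervals on these 3 shares all include the value of the whole list, and they cover counting only, since neighbouring summits are not independent.

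**Figure D2:**
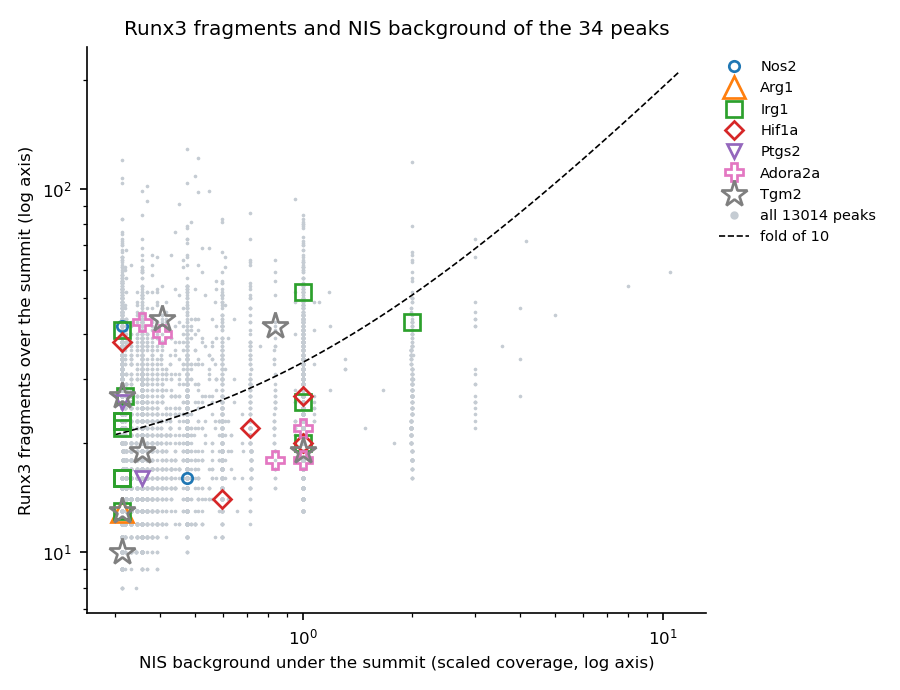
The plot sets the Runx3 fragments over each summit (log axis) against the scaled NIS background (log axis) for the 34 peaks (open symbols by gene, nested where values are equal) and for all 13014 peaks (grey). The dashed line marks a fold of 10. The peaks of the 8 genes have between 10 and 52 fragments, and 14 of the 34 lie above the line.

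A RUNX core stood within 100 bp of the summit in 26 of the 34 peaks (76.5%, Wilson 60.0 to 87.6) and in 64.2% of all peaks. In windows of the same length 1 kb upstream and downstream the shares were 17.6 and 20.6% for the 34 peaks, and 17.6 and 16.9% for all peaks. In both sets the core was more frequent at the summit than beside it. The T form alone was present in 24 of the 34 (70.6%, 53.8 to 83.2) and in 52.6% of all peaks, and 2 or more cores in 8 of the 34 (23.5%, 12.4 to 40.0) and in 17.4%. In the peaks with a core, the nearest core was centred at a median of 11 bp (3.5 to 27.5) and 14.5 bp from the summit. The domain rule keeps most promoters of other genes out of the 34 peaks but not out of the whole list. The part of this in the differences in these shares, and in those of the other motifs below, was not tested.

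The letters of 8 other factors were searched on both strands in the same windows. IRF letters (GAAA, any 2 bases, GAAA) stood in 5 of the 34 windows (14.7%, Wilson 6.45 to 30.1) and in 3.08% of all peaks, with 1 of 34 in each of the windows 1 kb to either side. The 5 peaks were Nos2 at 55.7 kb upstream, Irg1 at 30.8 kb upstream, Ptgs2 at 64.9 kb downstream, and Tgm2 at 10.4 kb downstream and 20.3 kb upstream. With 9 motifs looked at and 5 windows holding the letters, this share is given as a description.

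The HIF letters (ACGTG) were present in 5 of the 34 (14.7%) and in 13.2% of all peaks, and 1 of these 5 lay in the Hif1a domain, 298 kb upstream. The PU.1 letters (GAGGAAG), NF-kB letters (GGGA, any 4 bases, CC) and STAT letters (TTCNNNGAA) were each present in 4 of the 34 (11.8%), against 22.0, 12.8 and 9.06% of all peaks. The AP-1 letters (TGANTCA) and C/EBP letters (TTGCNNAA) were each present in 3 (8.82%), against 12.2 and 8.30%, and the AP-1 letters stood only in Specc1l introns of the Adora2a domain among the 34. The NRF2 letters (TGACNNNGC) were present in 1 (2.94%), at Nos2, against 10.5%. A match is a match of letters and not a shown site, and the lengths and allowed letters of the motifs differ.

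**Figure D3:**
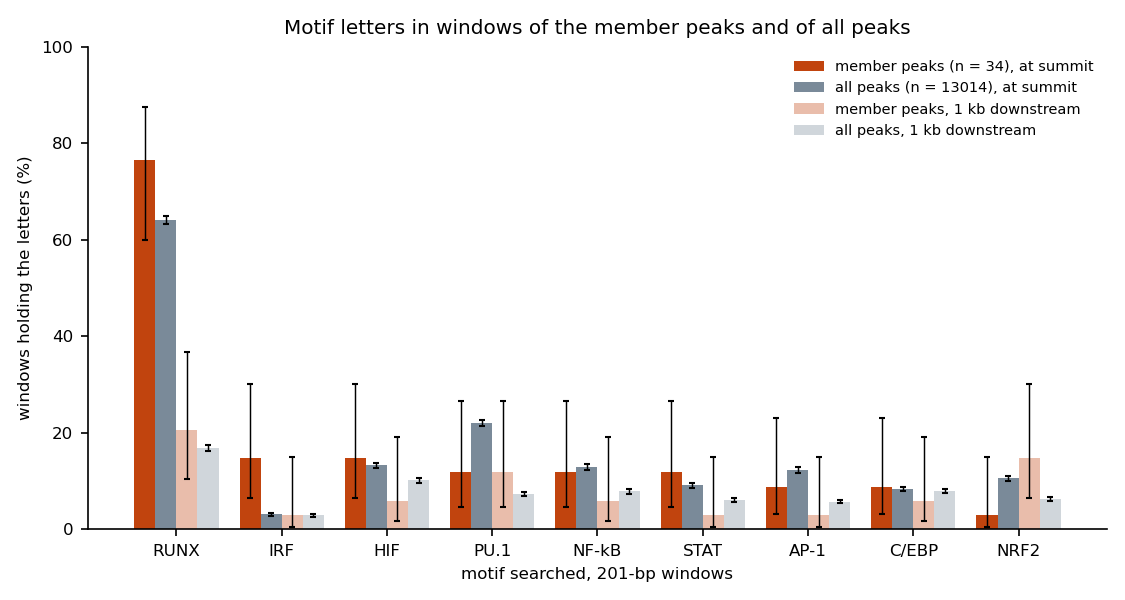
The bars give the share of windows (%) that hold each motif at the summit and 1 kb downstream, for the 34 peaks of the effector genes and for all 13014 peaks, with Wilson 95% intervals as lines. The RUNX core stands at 76.5 and 64.2% at the summit and at 20.6 and 16.9% downstream.

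The wider pathways were described by 133 other genes in 8 lists, of which 91 (68.4%, Wilson 60.1 to 75.7) had a peak and 42 had a peak of at least 10-fold. Of all genes, 43.1% had a peak and 19.7% a peak of at least 10-fold. The fold given for a listed gene is that of the strongest peak anywhere in its domain, which can lie far from the gene. Among the genes named below, that peak lay between 0.024 kb (Arnt) and 685 kb (Slc7a11) from the start site. The median domain of the listed genes was 125 kb, longer than the 90 kb of all genes. By list it ran from 60.4 kb (itaconate and TCA cycle) to 252 kb (arginine and nitric oxide), and the part of domain length in the shares was not tested. Some neighbouring genes share peaks, so that the intervals cover counting error only. The lists were also chosen with earlier results of these data known, so their shares are a description and not a measure of enrichment.

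Next to Nos2 and Arg1, the genes of arginine and nitric oxide metabolism had peaks in 7 of 17 cases (41.2%, 21.6 to 64.0), the only list at or under the share of all genes. The highest folds were those of Pts (20.7) and Gch1 (9.88), which make the tetrahydrobiopterin cofactor of nitric oxide synthases, of Slc7a1 (14.7), a transporter of arginine, and of Odc1 (9.42), the ornithine decarboxylase of polyamine synthesis. Arg2, Asl, Ddah2 and Gucy1a3 were among those with 0 peaks. The genes of itaconate and the TCA cycle had peaks in 12 of 20 cases (60.0%, 38.7 to 78.1), led by Idh2 (22.0), Idh3a (11.3), Suclg1 (9.85) and Idh1 (9.61), 3 isocitrate dehydrogenase genes and a succinyl-CoA ligase subunit. Idh3b, Idh3g, Mdh2 and Ogdh had 0.

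The genes of the hypoxia response had peaks in 14 of 18 cases (77.8%, 54.8 to 91.0). Slc2a1, the glucose transporter GLUT1, reached 24.5-fold in its own intron with 67 fragments. It was followed by Vegfa (18.1), the angiogenic growth factor, Arnt (15.5), the partner of Hif1a, and Epas1 (15.4), the HIF-2 subunit. The Arnt peak lay in the promoter, and those of Vegfa and Epas1 were intergenic, 280 and 150 kb downstream of the start sites. Car9, Egln1, Egln3 and Pgk1 had 0 peaks.

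The genes of prostaglandins and leukotrienes also had peaks in 14 of 18 cases (77.8%). Ptgs1, the constitutive counterpart of Ptgs2, reached 25.9-fold, the highest fold among all listed and effector genes. Alox5 (21.1), the 5-lipoxygenase, Ptger2 (18.9), a receptor of prostaglandin E, and Lta4h (17.2), the leukotriene A4 hydrolase with a promoter peak, came next. Ptger1, Ptges, Ptges2 and Ptgis had 0.

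Around Hmox1, which had no peak, the genes of haem, iron and NRF2 had peaks in 14 of 19 cases (73.7%, 51.2 to 88.2). Nfe2l2, which encodes NRF2, reached 20-fold, Hmox2, the constitutive haem oxygenase, 18.4, Fth1, the ferritin heavy chain, 17.2, and Slc7a11, the cystine transporter, 14.6. These peaks lay 58.9 kb upstream of Nfe2l2, 4.14 kb upstream of Fth1 and 685 kb upstream of Slc7a11. The Hmox2 peak lay 51 kb downstream of the start site, in an intron of 5730403B10Rik. Blvra and Blvrb, the biliverdin reductases, and Cd163 and Nqo1 had 0 peaks.

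The adenosine genes had peaks in 9 of 12 cases (75%, 46.8 to 91.1), and 7 of 12 had a peak of at least 10-fold, against 19.7% of all genes. Their median domain was 190 kb, against 90 kb for all genes, and the part of domain length in this share was not tested. The adenosine genes were led by Adora3 (19.8), another adenosine receptor, Slc29a3 (19.6), a nucleoside transporter, Creb1 (16.1), the cyclic AMP response factor, and Entpd1 (15.0), the ectonucleotidase CD39. Ada, Adora1 and Slc29a1 had 0. The genes of transglutaminases and efferocytosis had peaks in 9 of 14 cases (64.3%, 38.8 to 83.7), led by Mfge8 (12.5), a bridge to apoptotic cells, Tgm5 (12.2), and Tgm3 and Tgm6, which shared 1 peak of 11.6-fold. Gas6, Tgm1, Tgm7 and Timd4 had 0.

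The genes of alternative activation had peaks in 12 of 15 cases (80.0%, 54.8 to 93.0), and 3 of 15 reached 10-fold, near the 19.7% of all genes. These 3 were Il4ra (19.2), the receptor of interleukin-4, Ppard (18.5), a nuclear receptor, and Pdcd1lg2 (14.2), which encodes PD-L2, followed by Socs1 (9.55), a suppressor of cytokine signalling. Chi3l3, Chi3l4 and Retnla, secreted products that mark alternatively activated macrophages in mice, had 0 peaks.

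**Figure D4:**
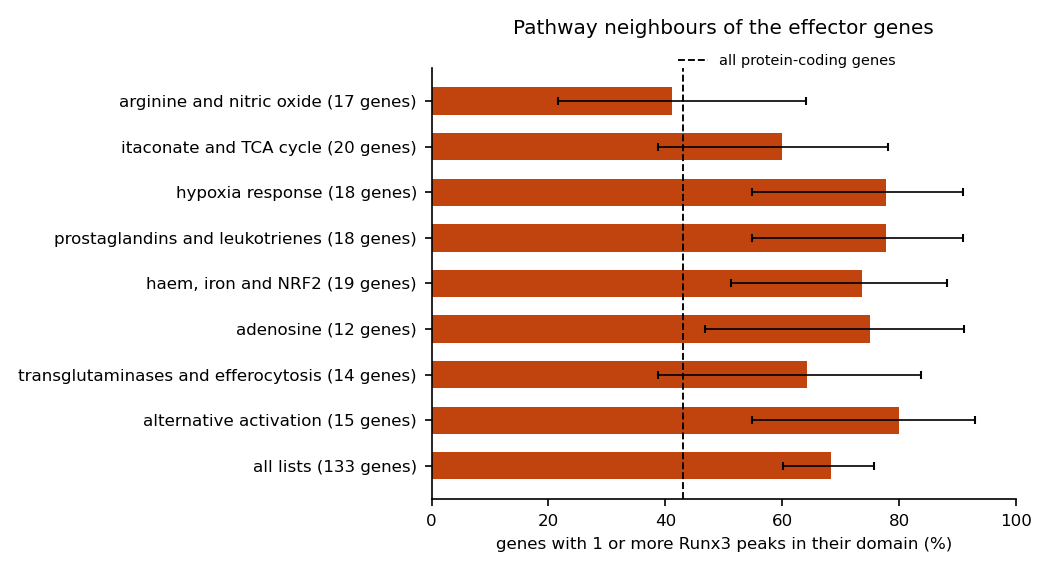
The bars give the share of genes (%) with 1 or more Runx3 peaks in their domain for each of the 8 lists and for all 133 genes, with Wilson 95% intervals as lines, and the dashed line marks 43.1%, the share of all protein-coding genes. The list of arginine and nitric oxide genes stands at 41.2% and the other 7 lists stand between 60.0 and 80.0%.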

How the data were processed

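The labels list 3 Runx3 IP and 2 NIS IP libraries of D1 cells, and which of them entered the peak list is not given in the sources used here. The authors aligned reads uniquely to mm9 with Bowtie (version 1 in the submitters' processing notes) and deposited 1 list of 13014 peaks called by MACS2 2.0.10 at a q cutoff of 0.05. Per the file headers, 8689867 of 12078978 Runx3 tags (28.1% removed as duplicates) and 4946605 of 7110481 NIS tags (30.4% removed) were kept, with fragments of 119 bp. The deposited values per peak are the pileup, a coverage signal scaled to the NIS depth, the fold enrichment ratio over the local NIS background, and −log10 values of p and q. The authors' fold and −log10 q-value were used as deposited, and their −log10 p-value was not used.

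Pileups were divided by 0.569, the value of 1 Runx3 fragment, and came out whole within 0.0087 of a fragment. The background followed from pileup and fold. Fold intervals are exact 95% Poisson intervals of the fragments with the background held fixed, and shares have Wilson intervals. Peak coordinates fitted the chromosome lengths of the NCBIM37 (mm9) genome. Domains came from its GENCODE vM1 genes (22367 protein-coding models, 22225 names). Motifs were searched as exact letters in the genome within 100 bp of the summit. All scripts used Python 3.11.15, NumPy 2.4.6, pandas 2.3.3, SciPy 1.17.1 and matplotlib 3.10.9, and the assignment and motif search were tested on simulated data.

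With 1 list and no values per library no test was possible, and all counts are described beside the same counts over all genes or peaks. All 8 genes were described. Of each pathway list, up to 4 genes with the highest folds and up to 4 without a peak in alphabetical order were named, with neighbouring genes where their body or domain holds or borders a peak. The members and lists were chosen with earlier results of these data known. Alternatives were a −log10 q of at least 5, a fold of at least 10, shorter extensions, the basal domain alone, the nearest gene, any overlap, bounding by other biotypes, and other forms of the core.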

Additional observations from a re-analysis of the deposited data

How the results depend on the processing

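No paired analysis was possible because the deposited list gives 1 value per peak and none per library, so the replicate numbers in the labels have no values behind them, and no library could be left out. Of the summary values recomputed under the alternatives, 34 stayed within 1.5 times the count or within the interval given and 7 moved. Of the counts and highest folds of single genes, 79 stayed and 28 moved. With the basal domain alone (5 kb upstream to 1 kb downstream), 0 of the 8 genes had a peak, 0 peaks remained, and 37 pathway genes had a peak, against 17.4% of all genes. That setting left no peak for a median or a share. With a fold of at least 10, 14 peaks remained with a median fold of 14.4, and 42 pathway genes had a peak. With domains bounded by genes of every biotype, 22 peaks remained. With extensions of at most 100 kb, Irg1 had 7 peaks and Hif1a and Arg1 had 0, and with the nearest gene alone Arg1 had 0 and the strongest peak of Nos2 was 6.85-fold, that of Hif1a 7.89-fold and that of Tgm2 13.6-fold. With domains bounded by every biotype, Arg1 and Ptgs2 had 0 peaks and Irg1 had 4, and Irg1 had 5 with RefSeq coding genes added, the alternative chosen after seeing the data. The share of peaks with a core was between 69.6 and 85.7% under every alternative that gave one. A core within 50 bp of the summit stood in 73.5% of the 34 peaks and in 56.8% of all peaks. The T form alone stood in 70.6 and 52.6%. For a −log10 q of at least 5 or a fold of at least 10, the share over all such peaks was not computed. Depth limits the weaker peaks: 10 fragments at the weakest gave a fold interval of 2.84 to 8.73, and a site with fewer fragments than the caller needed is not in the list.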
